A study of Mus musculus with 9 samples.

Results

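The transcription factors that build and maintain heart muscle were followed through birth in RNA-seq of whole mouse hearts. The genes were taken by their symbols: *Gata4*, *Gata6*, *Nkx2-5*, *Tbx5*, *Tbx20*, *Hand2*, *Mef2a*, *Mef2c*, *Srf* and *Myocd*. All 10 were found among the 48820 genes of the table, and all 10 passed the filter of a mean of at least 1 FPKM (fragments per kilobase per 1000000 fragments). The hearts came from wild-type (WT) C57BL/6J mice, labelled male and given no treatment. There were 3 hearts at embryonic day 18.5 (E18.5d), 3 at postnatal day 1 (P1d) and 3 at postnatal day 7 (P7d), and all 9 carried the same genotype. The values are of whole hearts, so fewer cells of a type and less RNA per cell cannot be told apart.

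These factors work as a network. GATA4 and GATA6 are zinc finger proteins, NKX2-5 is a homeodomain protein, TBX5 and TBX20 are T-box proteins and HAND2 is a basic helix-loop-helix protein. They bind beside each other at the enhancers of heart genes, and several regulate one another. MEF2A and MEF2C are MADS-box proteins of muscle genes, and SRF is the MADS-box protein that binds CArG boxes. Myocardin, the product of *Myocd*, binds no DNA itself and activates SRF target genes in heart and smooth muscle.

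Promoter sequence is shown for 3 members that were lower at P7d and for *Srf*, whose own promoter holds the site its protein binds. The RefSeq promoter table for GRCm38.p6 matched 6 of the 10 genes in 8 windows. *Gata4*, *Gata6*, *Tbx5* and *Myocd* were not among them. The 250 bases before the RefSeq start are given 5′ to 3′ on the strand of the gene. For *Hand2* (chr8:57320733-57320982, plus strand), *Tbx20* (chr9:24774304-24774553, minus strand) and *Nkx2-5* (chr17:26841566-26841815, minus strand), capitals mark matches on either strand to GATAA, to the GC box GGGCGG and to the E-box CANNTG. For *Srf* (chr17:46556163-46556412, minus strand), capitals mark the CArG boxes.
Hand2: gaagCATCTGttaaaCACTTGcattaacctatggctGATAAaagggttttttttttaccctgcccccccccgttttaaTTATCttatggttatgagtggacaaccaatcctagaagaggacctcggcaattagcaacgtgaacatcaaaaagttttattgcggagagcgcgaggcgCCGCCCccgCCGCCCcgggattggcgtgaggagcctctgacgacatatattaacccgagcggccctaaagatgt
Tbx20: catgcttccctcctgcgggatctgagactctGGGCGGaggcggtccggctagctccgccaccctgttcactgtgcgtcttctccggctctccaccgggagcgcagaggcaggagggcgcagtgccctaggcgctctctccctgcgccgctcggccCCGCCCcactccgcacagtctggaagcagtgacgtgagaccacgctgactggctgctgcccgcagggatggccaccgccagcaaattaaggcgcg
Nkx2-5: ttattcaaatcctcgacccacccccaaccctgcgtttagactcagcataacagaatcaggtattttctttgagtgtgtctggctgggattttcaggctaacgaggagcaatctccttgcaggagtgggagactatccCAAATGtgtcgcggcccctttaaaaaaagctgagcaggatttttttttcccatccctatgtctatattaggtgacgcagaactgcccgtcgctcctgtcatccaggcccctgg
Srf: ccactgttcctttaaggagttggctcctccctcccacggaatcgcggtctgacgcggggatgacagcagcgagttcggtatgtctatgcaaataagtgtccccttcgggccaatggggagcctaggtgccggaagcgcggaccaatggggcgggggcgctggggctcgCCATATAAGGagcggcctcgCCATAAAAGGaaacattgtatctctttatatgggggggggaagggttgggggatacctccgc

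The *Srf* window held CCATATAAGG from 82 to 73 bases and CCATAAAAGG from 62 to 53 bases before the start. A CArG box was found in 1.47% of the 32851 promoter windows of the same length. The *Hand2* window held 2 GATA matches, at 214 to 210 and 172 to 168 bases before the start, and a GATA match was found in 22.6% of all windows. The *Tbx20* window held 2 GC boxes (32.7% of all windows have at least 1) and the *Nkx2-5* window 1 E-box (66.2% of all windows have at least 1). These are matches of letters in a window, and binding was not measured. The RefSeq starts of *Nkx2-5* and *Srf* lie inside the longer gene models of GENCODE (chr17:26838664-26845009 and chr17:46548329-46556175). The distances given are from the RefSeq start.

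The depth of the hearts, read from the steps between low FPKM values, was 25.75 to 45.5 in units of 1000000 fragments. The 10 factors were estimated to have from 818 fragments (*Hand2*) to 57269 fragments (*Mef2a*) in a heart. All 6 markers of cardiomyocytes were at or above 1 FPKM in every heart, so the labelled tissue was present throughout. The label male did not hold for 4 hearts, E18.5d replicates 1 and 3 and P7d replicates 2 and 3, in which *Xist* was at 58.0 to 97.0 FPKM and 4 Y-linked genes were at 0. In the other 5 hearts *Xist* was at most 0.11 FPKM. P1d therefore holds no heart with *Xist*, and the members' changes and ratios are also given without those 4 hearts. In P1d replicate 1 the airway gene *Scgb1a1* stood at 42.1 FPKM while *Sftpc* was at 0.07 FPKM, and in P1d replicate 2 *Alb* of the liver stood at 15.9 FPKM.

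Among the GATA factors, *Gata6* was highest at P1d and lowest at P7d, while *Gata4* stayed within a narrow range. *Gata6*, which lies on chromosome 18 and takes part in the growth of the outflow tract and heart muscle, was at 39.29, 40.56 and 40.72 FPKM at E18.5d. It was at 59.59, 55.62 and 59.37 FPKM at P1d and at 27.23, 29.68 and 28.85 FPKM at P7d. The hearts of the 3 stages did not overlap. Its mean rose by 44.8% from E18.5d to P1d, a log2 change of 0.52 with an SE of 0.06 (limma on log2(FPKM + 1), adjusted p = 8.9e-05). From P1d to P7d it changed by -1.001 on the log2 scale (limma, adjusted p = 6.3e-06), and P7d was also below E18.5d, at -0.48 (limma, adjusted p = 0.00013). *Gata6* thus rose and then fell below its fetal level. An antisense gene, 1010001N08Rik, shares 93 bases or 1.43% of the exons of *Gata6*, and it was at 17.4 ± 2.57, 18.1 ± 2.95 and 6.82 ± 1.33 FPKM at the 3 stages (SD, n = 3). Its change from P1d to P7d, -1.29 on the log2 scale (limma, adjusted p = 0.00021), was -1.32 without the 4 hearts that had *Xist* (limma, adjusted p = 0.0544). Whether the counting used strand is not given in the sources used here, so reads in those shared bases cannot be told apart.

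*Gata4* (chr14:63198922-63271692, minus strand), required for the fetal heart tube and for growth of cardiomyocytes, was at 80.26, 76.42 and 80.15 FPKM at E18.5d. It was at 85.85, 80.94 and 84.65 FPKM at P1d and at 77.66, 85.73 and 82.93 FPKM at P7d. The P1d hearts were all above the E18.5d hearts, by a log2 change of 0.09 with a 95% interval of -0.04 to 0.21 (limma, adjusted p = 0.238). The P7d hearts overlapped both other stages, and the change from E18.5d was 0.06 with an interval of -0.07 to 0.18 (limma, adjusted p = 0.437). Scaling mattered for this gene. With the columns scaled by the median of ratios, the P7d level of *Gata4* exceeded that of E18.5d by 0.23 (limma, adjusted p = 0.0141), and with an equal sum of protein-coding nuclear genes by 0.22 (limma, adjusted p = 0.022).

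**Figure D1:**
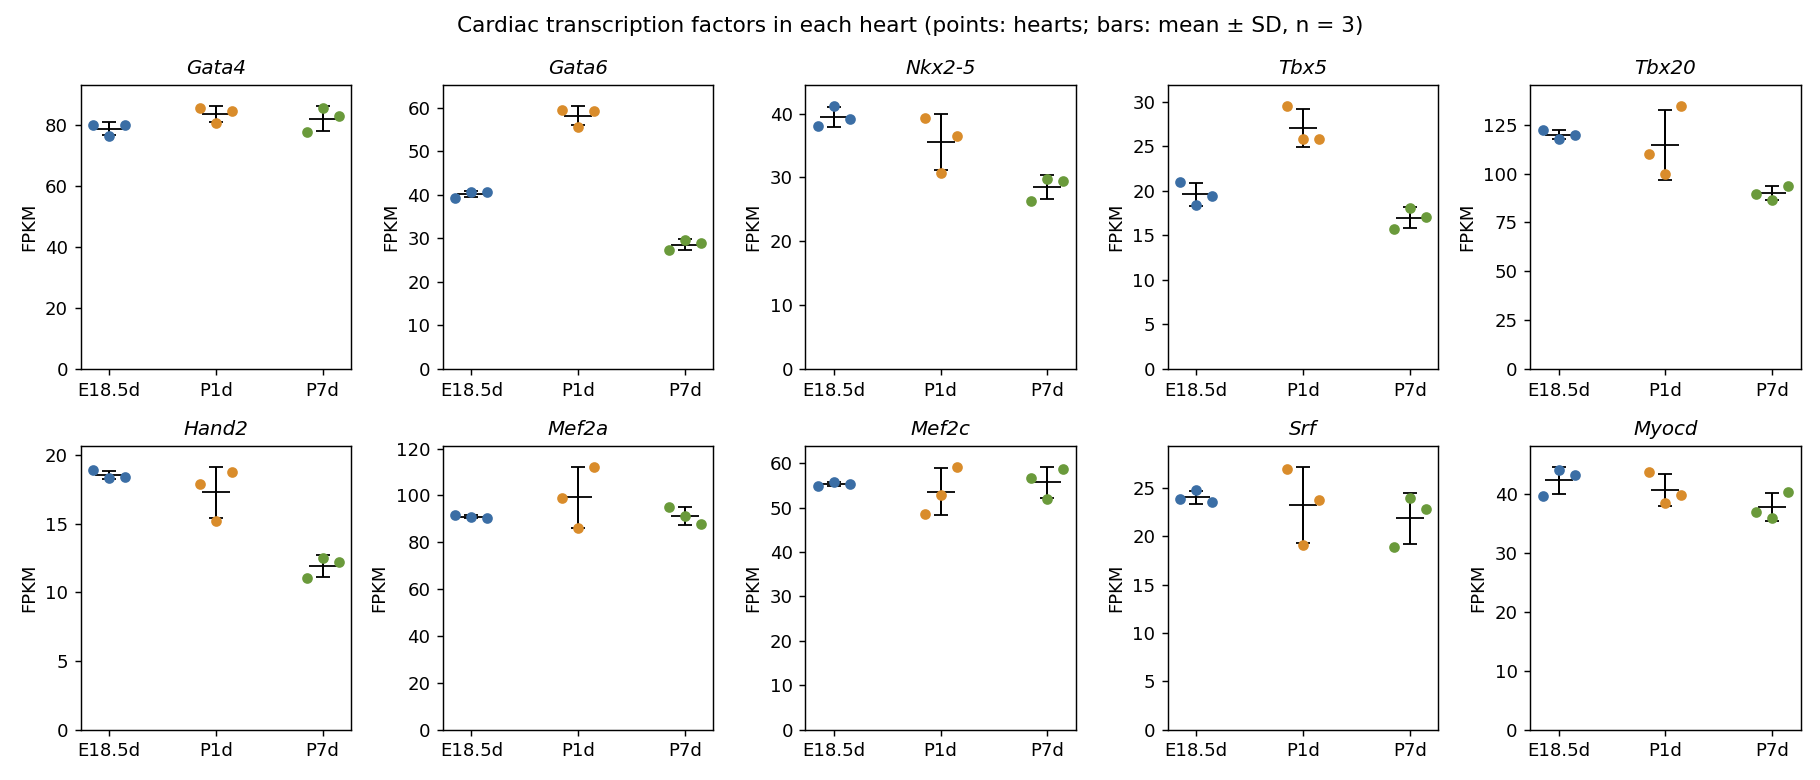
FPKM of the 10 factors in each heart at E18.5d, P1d and P7d, from 0 on each axis; points are hearts and bars are the mean and SD of 3 hearts. *Gata6* and *Tbx5* peak at P1d, *Hand2*, *Nkx2-5* and *Tbx20* are lowest at P7d, and *Gata4*, *Mef2a*, *Mef2c*, *Srf* and *Myocd* move little.

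The T-box factors moved in different ways. *Tbx5* (chr5:119832668-119885219, plus strand), which acts in the atria, the left ventricle and the conduction system, was at 20.98, 18.44 and 19.41 FPKM at E18.5d. It was at 29.51, 25.78 and 25.76 FPKM at P1d and at 15.74, 18.05 and 17.08 FPKM at P7d. All P1d hearts were above all hearts of the other stages. *Tbx5* rose by 0.44 ± 0.08 (SE) on the log2 scale to P1d (limma, adjusted p = 0.0017) and changed by -0.64 from P1d to P7d (limma, adjusted p = 0.00026). The difference between P7d and E18.5d was -0.20 with a 95% interval of -0.38 to -0.02 and did not pass the threshold (limma, adjusted p = 0.0629), although the hearts did not overlap. With the columns scaled to an equal sum, the rise at P1d was 0.28 (limma, adjusted p = 0.0953). The deposited column of P1d replicate 2 summed to 1794160 FPKM, and those of the other hearts to between 1347981 and 1520448 FPKM. The part of this 1 heart in the results with an equal sum was not tested.

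*Tbx20* (chr9:24718138-24774303, minus strand), needed for chamber growth and for adult cardiomyocytes, was the highest of the 10 at E18.5d, with 122.37, 117.62 and 119.52 FPKM. It was at 110.1, 99.51 and 134.58 FPKM at P1d, where the hearts spread around the fetal level, and at 89.75, 86.62 and 93.82 FPKM at P7d. With all 9 hearts *Tbx20* did not pass at P1d against E18.5d, and without P1d replicate 3 it was lower there by a log2 change of -0.19 (limma, adjusted p = 0.036). *Tbx20* was lower at P7d than at E18.5d by a log2 change of -0.41 ± 0.10 (SE; limma, adjusted p = 0.0065) and lower than at P1d by -0.34 (limma, adjusted p = 0.0191). Both depended on the scale. Scaled by the median of ratios they were -0.23 (limma, adjusted p = 0.0908) and -0.23 (limma, adjusted p = 0.0949), and without P7d replicate 2 the change from P1d did not pass either (limma, adjusted p = 0.064).

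*Nkx2-5* and *Hand2* were lower at P7d than at both other stages. *Nkx2-5* (chr17:26838664-26845009, minus strand), one of the earliest markers of heart muscle and a factor of the conduction system, was at 38.12, 41.18 and 39.19 FPKM at E18.5d. It was at 39.37, 30.68 and 36.47 FPKM at P1d and at 26.32, 29.8 and 29.43 FPKM at P7d. The P1d hearts reached from the fetal level down to near that of P7d. Against E18.5d the P7d change was -0.46 ± 0.09 (SE; limma, adjusted p = 0.0027), and against P1d it was -0.30 (limma, adjusted p = 0.0239). With an equal sum of protein-coding nuclear genes the first was -0.29 (limma, adjusted p = 0.0536). The second was lost by the median of ratios (-0.19, limma, adjusted p = 0.126), with only the stages compared in the fit, and without P1d replicate 1, P1d replicate 3 or P7d replicate 1. Leaving out each heart in turn gave adjusted p from 0.003 to 0.085 for it (limma).

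*Hand2* (chr8:57320983-57324633, plus strand), which forms the right ventricle and acts in the epicardium and in sympathetic neurons, had the lowest mean of the 10 in all 3 stages. The E18.5d hearts had 18.88, 18.35 and 18.37 FPKM, the P1d hearts 17.86, 15.21 and 18.78 FPKM and the P7d hearts 11.04, 12.52 and 12.21 FPKM. *Hand2* fell by 35.7% from E18.5d to P7d, a log2 change of -0.60 ± 0.08 (SE; limma, adjusted p = 0.00036), and changed by -0.50 on the log2 scale from P1d (limma, adjusted p = 0.0013). With an equal sum, the change from P1d was -0.38 (limma, adjusted p = 0.0623). The antisense gene *Hand2os1* shares 461 bases, 19.6% of the *Hand2* exons, and was at 39.8 ± 4.72, 54.8 ± 3.53 and 29.8 ± 2.95 FPKM (SD, n = 3). *Hand2os1* rose at P1d by 0.46 (limma, adjusted p = 0.005), when *Hand2* changed by -0.10 (limma, adjusted p = 0.345), and at P7d it was below E18.5d by -0.40 (limma, adjusted p = 0.0085). Without the 4 hearts that had *Xist* these changes of *Hand2os1* were 0.66 (limma, adjusted p = 0.0479) and -0.06 (limma, adjusted p = 0.818). The share of reads counted for both was not tested.

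The MADS-box factors and myocardin did not pass the test in any of the 3 comparisons, and each of their 95% intervals included 0. *Mef2a* (chr7:67231163-67372858, minus strand), the main MEF2 factor of postnatal heart muscle, was at 91.49, 90.77 and 90.24 FPKM at E18.5d, at 99.02, 86.29 and 112.28 FPKM at P1d and at 95.14, 91.29 and 87.62 FPKM at P7d. Its log2 change from E18.5d to P7d was 0.01 with a 95% interval of -0.19 to 0.20. *Mef2c* (chr13:83504034-83667080, plus strand), the MEF2 factor of early heart development, was at 54.77, 55.78 and 55.36 FPKM, then 48.66, 52.75 and 59.2 FPKM, then 56.55, 51.89 and 58.68 FPKM. That change was 0.01 with an interval of -0.16 to 0.18. For both genes the P1d hearts spread on either side of the fetal hearts. Without P1d replicate 2, *Mef2a* passed at P1d against E18.5d (0.21, limma, adjusted p = 0.031) and at P7d against P1d (-0.21, limma, adjusted p = 0.036).

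*Srf* (chr17:46548329-46556175, minus strand) was at 23.82, 24.75 and 23.5 FPKM at E18.5d, at 26.94, 19.09 and 23.7 FPKM at P1d and at 18.85, 23.91 and 22.78 FPKM at P7d. *Myocd* (chr11:65176561-65269989, minus strand) was at 39.61, 43.97 and 43.24 FPKM, then 43.78, 38.44 and 39.77 FPKM, then 36.89, 35.91 and 40.4 FPKM. The stages overlapped for both. From E18.5d to P7d the log2 change was -0.14 for *Srf*, with a 95% interval of -0.41 to 0.14, and -0.16 for *Myocd*, with an interval of -0.32 to 0.003 (limma, adjusted p = 0.0927).

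Counted over the 10 factors, 2 were higher and 0 lower at P1d than at E18.5d, where 46.0% of the 13618 tested genes passed the test (18.4% higher and 27.6% lower). At P7d against E18.5d, 4 were lower and 0 higher, where 49.4% of the tested genes passed (12.5% higher and 36.9% lower). At P7d against P1d, 5 were lower and 0 higher, where 44.2% passed (15.5% higher and 28.6% lower). At an unadjusted p under 0.05, limma added only the lower level of *Tbx5* at P7d against E18.5d to these calls. Against these shares, 2 of 10 at P1d is below the background, and 4 and 5 of 10 are near it. The 2 comparisons with E18.5d share those hearts, as do the others that have a stage in common. The hearts did not overlap for 3, 5 and 5 of the factors, and for 54.4%, 62.5% and 53.6% of the tested genes.

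The level of all tested genes moved with the stage on the deposited scale. Their median log2 change was -0.06 at P1d and -0.17 at P7d against E18.5d, and -0.09 at P7d against P1d. Relative to that median, the P7d change from E18.5d was -0.42 for *Hand2*, -0.30 for *Gata6*, -0.28 for *Nkx2-5* and -0.24 for *Tbx20*. It was 0.23 for *Gata4* and 0.18 for both *Mef2a* and *Mef2c*. *Tbx5*, *Srf* and *Myocd* were within 0.04 of the median. The scaling also set how the calls split. At P1d against E18.5d, the share of tested genes called higher and lower was 23.2% and 22.9% by the median of ratios, 23.5% and 22.5% with quantile normalization, 19.3% and 25.7% with an equal sum of protein-coding nuclear genes, and 8.63% and 34.5% with an equal sum. The members split into 2 higher and 0 lower with the first 3 and 1 higher and 0 lower with the last. At P7d against E18.5d, the shares were 21.3% and 20.9%, 21.2% and 21.6%, 20.2% and 21.1%, and 9.30% and 32.6%, in the same order, and the members split into 1 higher and 3 lower, 0 and 3, 1 and 2, and 0 and 4. At P7d against P1d, they were 21.9% and 19.8%, 21.1% and 20.5%, 24.2% and 16.4%, and 16.2% and 12.7%, with 0 members higher throughout and 3, 3, 3 and 2 lower. *Gata6* passed the test in all 3 comparisons as deposited and under the 4 other scalings.

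**Figure D2:**
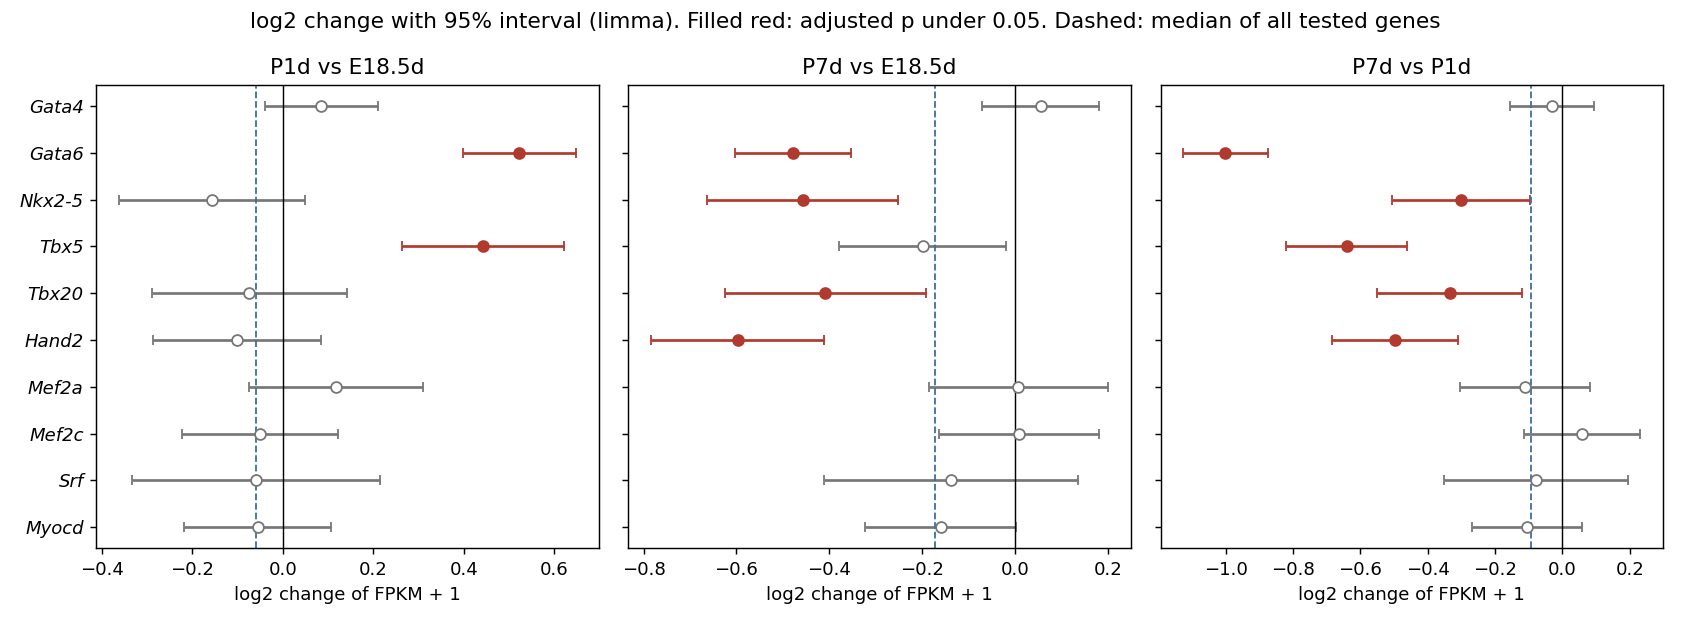
Log2 change of FPKM + 1 for each factor (x axis) in the 3 comparisons, with its 95% interval from limma; filled red points have an adjusted p under 0.05 and the dashed line is the median of all 13618 tested genes. *Gata6* and *Tbx5* stand to the right at P1d against E18.5d, and at P7d against P1d 5 factors stand to the left.

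**Figure D3:**
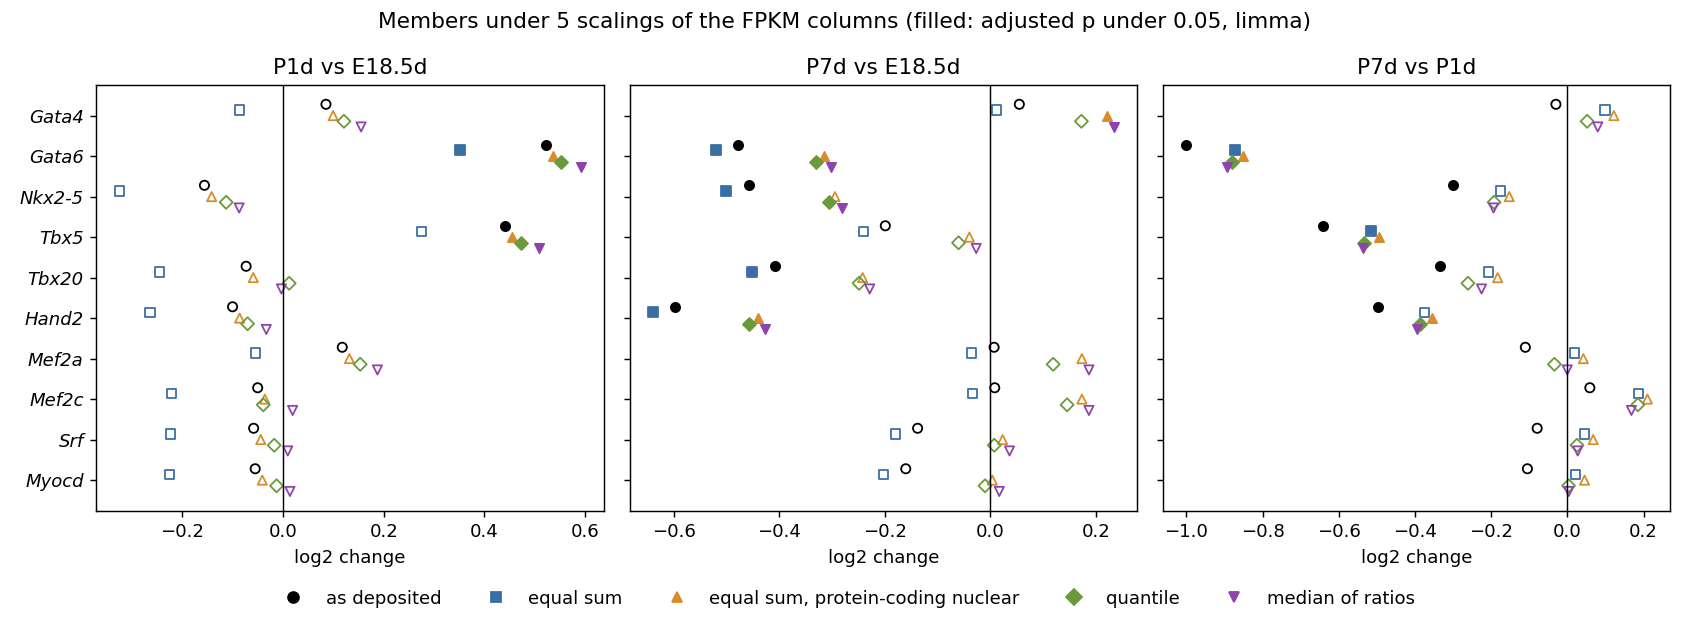
Log2 change (x axis) of each factor with the FPKM columns as deposited and under 4 other scalings, in the 3 comparisons; filled symbols have an adjusted p under 0.05. *Gata6* is filled under every scaling shown, while *Tbx20* and *Nkx2-5* at P7d against P1d are filled as deposited and open under the other 4.

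Without the 4 hearts that had *Xist*, E18.5d and P7d hold 1 heart each, and the spread there rests on the P1d hearts. *Gata6* at P7d against P1d was then the only member to pass (-1.07, limma, adjusted p = 0.0351). The other calls kept their direction. At P1d against E18.5d, *Gata6* was at 0.51 (limma, adjusted p = 0.0586) and *Tbx5* at 0.52 (limma, adjusted p = 0.0806). At P7d against E18.5d, *Gata6* was at -0.56, *Nkx2-5* at -0.63, *Tbx20* at -0.39 and *Hand2* at -0.68, with adjusted p from limma of 0.1, 0.159, 0.358 and 0.129. At P7d against P1d, *Nkx2-5* was at -0.41, *Tbx5* at -0.74, *Tbx20* at -0.34 and *Hand2* at -0.60, with adjusted p from limma of 0.204, 0.0661, 0.315 and 0.106. With all 9 hearts and a term for *Xist*, the P7d to P1d calls of *Nkx2-5* (adjusted p = 0.0698) and *Tbx20* (adjusted p = 0.0668) were lost in limma, and every other call of a member stood. *Gata4* did not pass in the 5 hearts, with 0.13, 0.02 and -0.11 in the comparisons of P1d with E18.5d, P7d with E18.5d and P7d with P1d (limma, adjusted p = 0.436, 0.928 and 0.539), nor did *Mef2a*, *Mef2c*, *Srf* or *Myocd*. For the genes named by rule from the lists of related factors and targets, 52 called changes were refitted in these 5 hearts. All 52 kept their direction and 9 still passed.

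Ratios between factors within a heart do not depend on the scale of its column. For *Gata4* to *Gata6* the E18.5d ratio was 1.97 ± 0.079, and it was 1.44 ± 0.015 in P1d hearts and 2.87 ± 0.018 in P7d hearts (SD, n = 3). The hearts of the 3 stages did not overlap, and each of the 3 differences had p = 0.1 in an exact two-sided permutation test, the smallest that 3 against 3 hearts allow (adjusted p = 0.24 over 12 exact tests). For *Tbx5* to *Tbx20* the E18.5d ratio was 0.164 ± 0.0074, followed by 0.240 ± 0.042 in P1d hearts and 0.189 ± 0.017 in P7d hearts. Both postnatal stages lay above E18.5d without overlap (exact permutation p = 0.1 each), and P1d and P7d overlapped (exact permutation p = 0.2). The ratio of *Mef2a* to *Mef2c* was 1.64 ± 0.024, 1.86 ± 0.20 and 1.64 ± 0.14, and that of *Myocd* to *Srf* was 1.76 ± 0.090, 1.77 ± 0.21 and 1.74 ± 0.23. These overlapped between stages (exact permutation p from 0.2 to 1). In the 5 hearts without *Xist*, the log2 ratio of *Gata4* to *Gata6* differed by -0.39 at P1d and 0.60 at P7d against E18.5d, and by 0.99 at P7d against P1d (-0.45, 0.55 and 0.995 with all 9). That of *Tbx5* to *Tbx20* differed by 0.60, 0.16 and -0.43 (0.54, 0.20 and -0.33 with all 9), with no test.

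**Figure D4:**
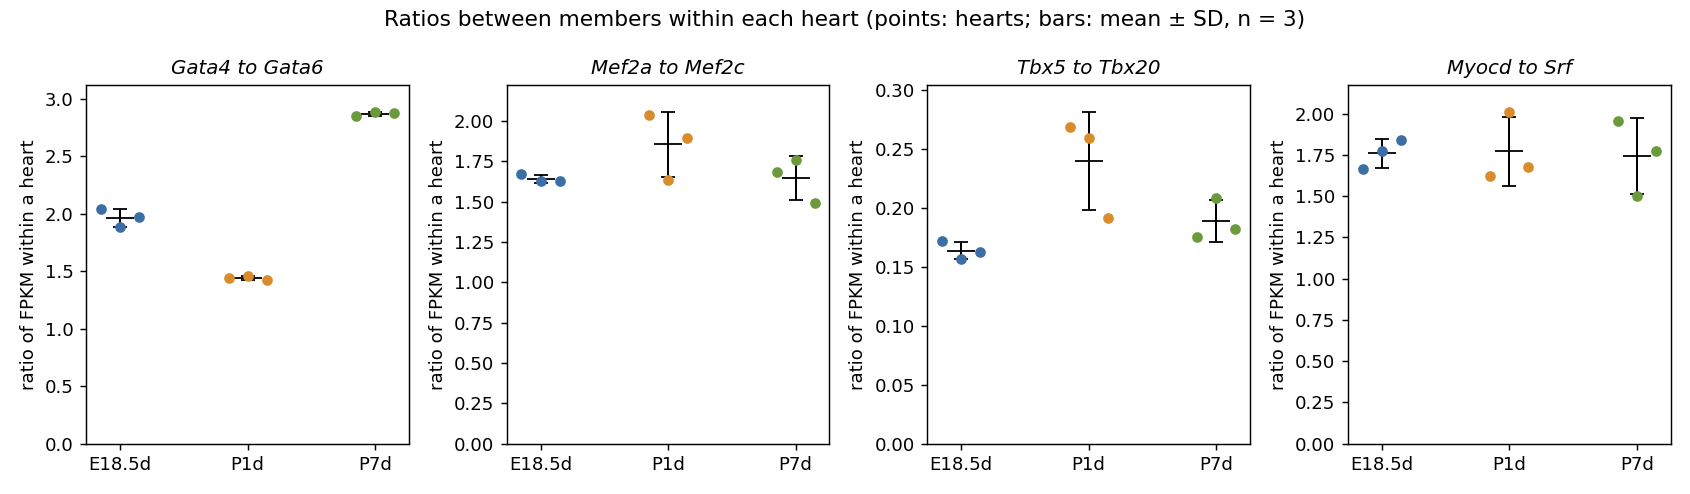
Ratio of FPKM within a heart (y axis, from 0) for 4 pairs of factors at E18.5d, P1d and P7d; points are hearts and bars are the mean and SD of 3 hearts. *Gata4* to *Gata6* goes from 1.97 to 1.44 and then to 2.87 with no overlap between stages, while *Myocd* to *Srf* stays between 1.74 and 1.77 on average.

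In order of FPKM, which is a level per length, *Tbx20* came first at E18.5d, followed by *Mef2a*, *Gata4* and *Mef2c*, with no overlap between neighbours. *Myocd*, *Gata6* and *Nkx2-5* followed with overlapping hearts, then *Srf*, and *Tbx5* and *Hand2* overlapped at the low end. At P1d *Tbx20* overlapped *Mef2a*, and *Gata6* had moved up to overlap *Mef2c*. At P7d *Mef2a* and *Tbx20* overlapped at the top, *Gata6* overlapped *Nkx2-5*, and *Hand2* was lowest without overlap.

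Across the 9 hearts, which come from 3 stages, the genes most like each called factor were found by Pearson's r of log2(FPKM + 1). They were *Gm45716* and *Adam22* for *Gata6* (both r = 0.987), *Tro* and *Rbpms2* for *Hand2* (r = 0.993 and 0.990), and *Cacna1d* and *Cfl2* for *Tbx20* (r = 0.987 and 0.984). They were *1700096K18Rik* and *4933431K23Rik* for *Tbx5* (r = 0.983 and 0.977) and *Rragb* and *Nt5c2* for *Nkx2-5* (both r = 0.961). Among the factors themselves, *Gata6* and *Tbx5* had r = 0.95, and *Nkx2-5* and *Hand2* had r = 0.95. These are descriptions over 9 hearts that share 3 stages.

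Markers of parts of the heart moved with the stage. The 5 atrial markers summed to 6568 to 7741 FPKM in E18.5d hearts, 6563 to 6958 FPKM in P1d hearts and 3366 to 3588 FPKM in P7d hearts. The sum of 4 epicardial markers was 44.4 to 54.2, 44.7 to 60.8 and 22.9 to 27.3 FPKM. Both sums were thus lowest at P7d, as were the means of *Gata6*, *Hand2*, *Tbx20*, *Nkx2-5*, *Tbx5*, *Srf* and *Myocd*. Of these factors, *Tbx5*, *Srf* and *Myocd* did not pass at P7d against E18.5d. The sum of 4 smooth muscle markers was lowest at P7d too, at 716 to 885, 693 to 797 and 552 to 666 FPKM. Not every marker in the atrial and epicardial sums followed. *Bmp10* (atrial) stood at 31.6 to 39.2 FPKM at P1d and 30.2 to 46.9 FPKM at P7d. *Wt1* (epicardial) stood at 7.61 to 9.69, 5.49 to 6.37 and 5.94 to 7.77 FPKM at E18.5d, P1d and P7d. The other markers of both lists were lower in every P7d heart than in any earlier heart. The sum of 4 ventricular markers was 15929 to 17719 FPKM at E18.5d, 17560 to 20075 FPKM at P1d and 18414 to 20139 FPKM at P7d. Of these, *Myl3* was higher and *Hey2* and *Irx4* were lower in every P7d heart than in any E18.5d heart, and *Myl2* overlapped. The sum of 6 cardiomyocyte markers was 11840 to 11981 FPKM at E18.5d, 15986 to 17101 FPKM at P1d and 16483 to 17178 FPKM at P7d. Of that list *Myh6* stood at 3189 to 3260, 6408 to 6958 and 7980 to 8564 FPKM, while *Tnnt2* stood at 4278 to 4510, 4388 to 4994 and 2778 to 3198 FPKM, so its members did not move together. *Myh6*, *Tnni3* and *Ryr2* are also in the list of GATA, NKX and T-box targets. The sum of 5 endothelial markers was 298 to 335, 353 to 386 and 417 to 432 FPKM. Of these, *Cdh5* and *Kdr* were higher in every P7d heart than in any earlier heart, and *Kdr* was lowest at P1d. *Pecam1* and *Tie1* overlapped between P1d and P7d, and *Tek* between E18.5d and P7d. The sum of 6 fibroblast markers was 1672 to 1734, 1406 to 1834 and 2255 to 2343 FPKM. In the fibroblast list, *Col3a1* (681 to 740, 650 to 873 and 1194 to 1211 FPKM) and *Dcn* were higher at P7d, whereas *Pdgfra* stood at 26.6 to 28.9 FPKM at E18.5d and 27.2 to 27.8 FPKM at P7d, and *Postn* was lower at P7d than in any E18.5d heart. The part of these shifts in the results was not tested.

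Of 22 related heart transcription factors, 18 were tested, and *Tbx1*, *Hand1*, *Mef2b* and *Isl1* were under the filter. Of those left out, *Hand1* was at 0.94, 0.91 and 0.10 FPKM and *Isl1* at 0.71, 0.61 and 0.16 FPKM on average at E18.5d, P1d and P7d. Both were lower in every P7d heart than in any earlier heart, and neither is in the counts. At P1d against E18.5d, 3 of the 18 tested factors were higher and 2 lower, and at P7d against E18.5d, 3 were higher and 7 lower. Their median log2 change at P7d was -0.13 (all tested genes, -0.17). Of all tested genes, 18.4% were higher and 27.6% lower at P1d, and 12.5% and 36.9% at P7d. These shares are also the background of the lists below as deposited. By the median of ratios, 23.2% were higher and 22.9% lower at P1d, and 21.3% and 20.9% at P7d. Those shares are the background of every list split given by the median of ratios against E18.5d. *Irx3*, a homeodomain factor of the conduction system, rose from 4.95 ± 0.32 to 9.83 ± 0.32 FPKM at P7d (SD, n = 3; log2 change 0.86, limma, adjusted p = 0.00022). *Mef2d* rose from 24.7 ± 1.79 to 33.7 ± 0.99 FPKM (0.44, limma, adjusted p = 0.00088), and *Irx5* changed by 0.26 (limma, adjusted p = 0.0387), a call lost in 10 of the 21 alternatives that could be fitted for it. *Tbx18*, a factor of the epicardium and sinus node, fell from 9.14 ± 0.66 to 4.68 ± 0.026 FPKM (-0.83, limma, adjusted p = 3.2e-05). *Foxp1* fell from 23.0 ± 2.79 to 13.4 ± 1.27 FPKM and *Gata5* from 2.02 ± 0.067 to 0.77 ± 0.16 FPKM. *Gata5* averaged 0.90 FPKM at P1d, so it passed the filter only through E18.5d, the stage where it was high. Its lower calls at P1d and P7d are in the counts of this list and depend in part on that filter. At P1d, *Irx3*, *Mef2d* and *Tbx2* were higher and *Gata5* and *Tbx18* lower. *Tbx2* did not pass at P7d (0.22, limma, adjusted p = 0.0858), and its P1d call was lost in 6 of 21 alternatives. By the median of ratios the P7d split of this list was 5 higher and 5 lower.

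The 14 co-factors divided into 5 higher and 4 lower at P1d, and 2 higher and 4 lower at P7d against E18.5d. Their median at P7d was -0.08 (all tested genes, -0.17). *Fhl2*, a LIM-domain co-factor, went from 325 ± 12.2 to 465 ± 75.1 and 626 ± 53.7 FPKM at the 3 stages (P7d log2 change 0.94, limma, adjusted p = 0.00012). *Hdac7* rose by 0.38 at P7d, while *Hdac9*, which represses MEF2 and is also a MEF2 target, changed by -0.53 (limma, adjusted p = 0.0011). *Zfpm1*, a GATA partner, changed by -0.48 at P1d and -0.26 at P7d, and *Ep300* by -0.27 at P7d (limma, adjusted p = 0.0355). Both P7d calls were lost under all 4 other scalings, and in 6 and 12 of 22 alternatives. At P1d *Hopx* changed by 0.29 (limma, adjusted p = 0.0222) and *Smarcd3* by -0.42 (limma, adjusted p = 0.0298), and these calls were lost in 7 and 10 of 22 alternatives. Scaled by the median of ratios, 5 were higher and 1 lower at P1d, and 4 higher and 1 lower at P7d.

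Targets of the GATA, NKX and T-box factors went both ways. Of 14, 7 were higher and 2 lower at P1d, and 5 were higher and 6 lower at P7d against E18.5d. Their median at P7d was -0.45 (all tested genes, -0.17). *Myh6*, the alpha myosin heavy chain, went from 3220 ± 36.6 to 6737 ± 291 and 8318 ± 302 FPKM (P7d 1.37, limma, adjusted p = 1.2e-06). *Atp2a2*, the calcium pump of the sarcoplasmic reticulum, rose by 0.97 at P7d. *Gja5*, a gap junction gene of atria and conduction system, went from 39.5 ± 2.69 to 17.5 ± 2.09 FPKM (-1.14, limma, adjusted p = 1.9e-05), and *Nppa*, the atrial natriuretic peptide, from 2103 ± 128 to 1047 ± 24.9 FPKM (-1.003). *Adora1* changed by -0.84 at P7d, and *Bmp10* by -0.72 at P1d. *Nppa* and *Bmp10* are also among the atrial markers. By the median of ratios the P7d split was 5 higher and 5 lower.

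Of 10 MEF2 targets, 4 were higher and 2 lower at P1d, and 3 were higher and 2 lower at P7d against E18.5d. Their median at P7d was 0.14 (all tested genes, -0.17). *Xirp2*, a protein of the intercalated disc, went from 1.35 ± 0.33 to 8.84 ± 0.84 FPKM (2.07, limma, adjusted p = 3e-06), and *Mb*, myoglobin, from 1664 ± 91.3 to 4865 ± 76.5 FPKM (1.55). *Hrc* rose by 1.04 at P7d, and *Nr4a1* (1.28) and *Ppargc1a* (0.69) rose at P1d. At P7d against E18.5d, *Nr4a1* (0.26, limma, adjusted p = 0.156) and *Ppargc1a* (-0.002, limma, adjusted p = 0.987) did not pass. *Ckm*, muscle creatine kinase, changed by -0.23 at P1d and -0.29 at P7d. With the columns scaled by the median of ratios, 4 were higher and 0 lower at P1d, and 6 higher and 1 lower at P7d.

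Of 15 targets of SRF and myocardin, 2 were higher and 5 lower at P1d, and 4 were higher and 7 lower at P7d against E18.5d. Their median at P7d was -0.14, near that of all tested genes (-0.17). The smooth muscle genes *Cnn1* and *Myl9* fell, *Cnn1* from 31.8 ± 4.15 to 6.01 ± 0.20 FPKM (-2.22, limma, adjusted p = 8.3e-07) and *Myl9* from 829 ± 77.6 to 336 ± 33.3 FPKM (-1.30). *Actg2* changed by -0.97 at P7d and *Tpm2* by -0.55 at P1d. *Smtn*, another smooth muscle gene, was lower at P1d (-0.35, limma, adjusted p = 0.0068) and higher at P7d by 0.83, both against E18.5d. The immediate early genes *Fos* and *Egr1* rose by 1.16 and 1.11 at P7d. *Fos* and *Junb* were higher at P1d, by 1.20 and 0.58. By the median of ratios the P7d split was 5 higher and 4 lower. The 4 smooth muscle markers *Acta2*, *Tagln*, *Cnn1* and *Myh11* are all in this list of targets. Their sum was 716 to 885 FPKM at E18.5d and 552 to 666 FPKM at P7d. *Acta2* alone stood at 624 to 744 and 489 to 603 FPKM, and *Myh11* at 10.8 to 21.5 and 12.5 to 14.8 FPKM. The part of this sum in the changes of the list was not tested.

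At P7d against P1d, the related factors divided into 1 higher and 4 lower, the co-factors into 4 and 5, the GATA, NKX and T-box targets into 3 and 6, the MEF2 targets into 3 and 4, and the SRF and myocardin targets into 3 and 4. By the median of ratios these were 3 and 2, 4 and 2, 4 and 5, 4 and 2, and 4 and 3, in the same order. Over all tested genes, 15.5% were higher and 28.6% lower as deposited, and 21.9% and 19.8% by the median of ratios.

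**Figure D5:**
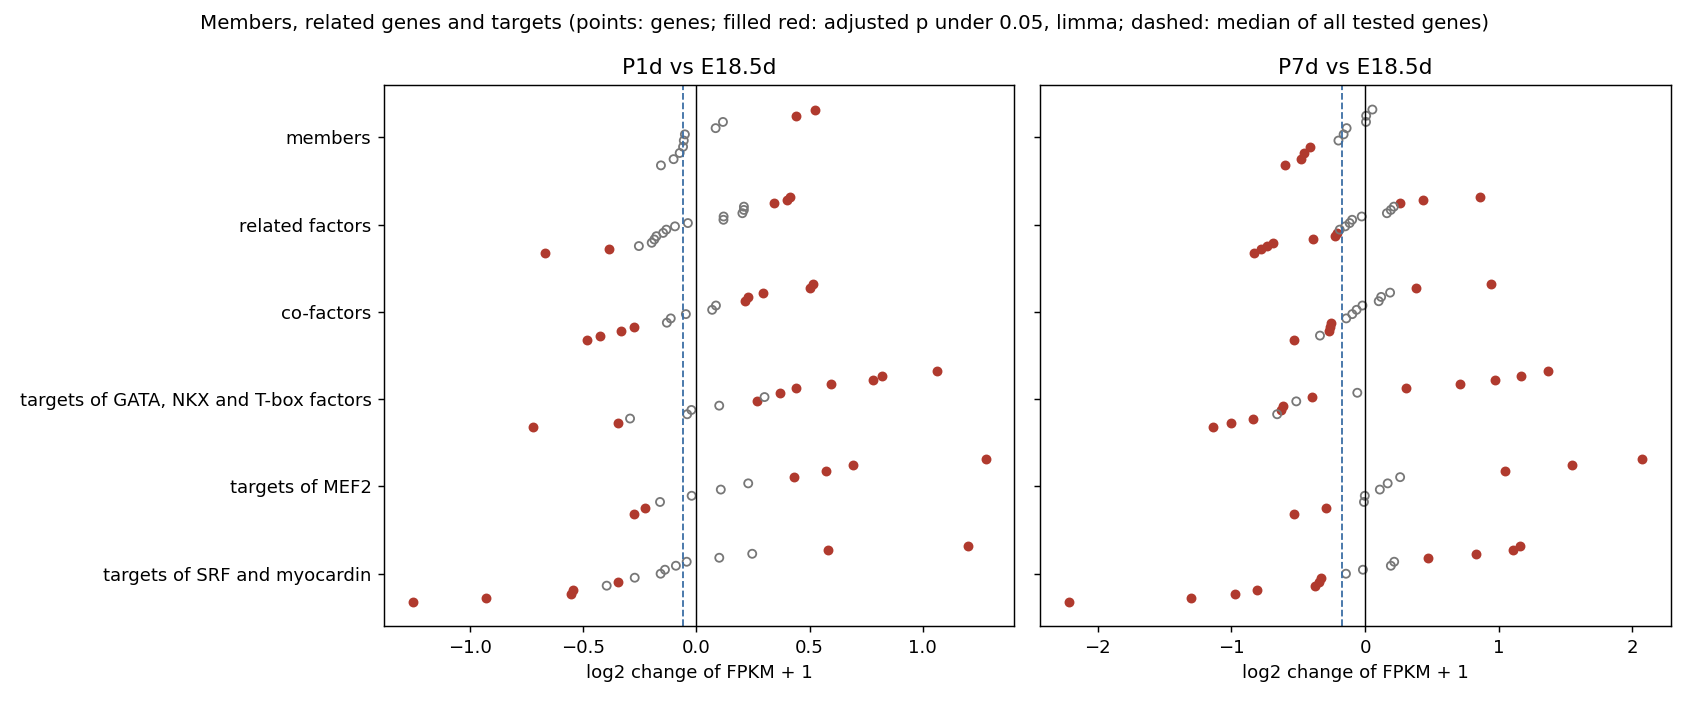
Log2 change of FPKM + 1 (x axis) of the 10 factors and of 5 lists of related genes and targets, at P1d and P7d against E18.5d; points are genes, filled red ones have an adjusted p under 0.05 and the dashed line is the median of all tested genes. The 10 factors span a narrower range than the targets, whose lists together hold more genes, and the spreads were not tested. Among the targets *Xirp2* (2.07) and *Cnn1* (-2.22) lie farthest out at P7d.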

How the data were processed

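RNA was sequenced from 9 hearts, 3 per stage, with libraries made from total RNA. The authors deposited FPKM values of 48820 genes, 1 column per heart. The submitters' processing notes name STAR and GRCm38 (mm10). The counting tool, its strand setting and the annotation are not given in the sources used here. Identifiers were matched to GENCODE M21 of GRCm38 (48144 found), from which names and positions were taken. Promoters were from RefSeq (GRCm38.p6).

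The deposited FPKM were analysed as log2(FPKM + 1), so fold changes of low genes are understated. Genes averaging 1 FPKM or more (13618) entered 1 limma model of the 3 stages (version 3.58.1, R 4.3.3, trended eBayes, no covariates), and p-values were adjusted by Benjamini-Hochberg and called under 0.05. Ratios were tested by exact permutation in Python 3.11.15 with scipy 1.17.1. Depth was estimated from low values, of which 74.8% to 82.7% were whole multiples of 1 fragment (23.3% to 27.8% by chance). The fit was tested on simulated data.

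Members and lists were chosen with earlier results of these data known. Named from each list were up to 3 of the largest increases and decreases at P7d and at P1d against E18.5d, among called genes whose hearts did not overlap. Of the genes so chosen, 1 is left out of the text. Alternatives were a pseudocount of 0.1, no filter or a mean of at least 5 FPKM, 4 scalings, eBayes without trend, only the compared stages, a replicate block, a term for *Xist*, the 5 hearts without *Xist*, a log2 change of 1 or more in size, and omission of single hearts. The labels call the hearts biological replicates and give no litter.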

Additional observations from a re-analysis of the deposited data

How the results depend on the processing

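Of 660 values of the 10 factors under the alternatives, 574 kept their direction and side of the threshold, 41 lost the call, 7 gained one and 38 changed sign. All sign changes were in comparisons in which the member did not pass the test as deposited. The causes were not tested.

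With an equal sum, log2 changes of changed sign were -0.087 (*Gata4*) and -0.055 (*Mef2a*) at P1d against E18.5d, -0.036 (*Mef2a*) and -0.034 (*Mef2c*) at P7d against E18.5d, and 0.099 (*Gata4*), 0.019 (*Mef2a*), 0.045 (*Srf*) and 0.022 (*Myocd*) at P7d against P1d. With the median of ratios they were 0.019 (*Mef2c*), 0.0093 (*Srf*) and 0.014 (*Myocd*), then 0.037 (*Srf*) and 0.017 (*Myocd*), then 0.080 (*Gata4*), 0.027 (*Srf*) and 0.0035 (*Myocd*), in the same order of comparisons. With quantile normalization they were 0.012 (*Tbx20*), then 0.0076 (*Srf*), then 0.052 (*Gata4*), 0.025 (*Srf*) and 0.0031 (*Myocd*). With protein-coding nuclear genes they were 0.023 (*Srf*) and 0.0039 (*Myocd*) at P7d against E18.5d and 0.122 (*Gata4*), 0.042 (*Mef2a*), 0.068 (*Srf*) and 0.045 (*Myocd*) at P7d against P1d. With the *Xist* term *Srf* was at 0.019 at P1d. In the 5 hearts without *Xist*, log2 ratio differences of changed sign were 0.048 (*Mef2a* to *Mef2c*, P7d against E18.5d) and -0.010, 0.14 and 0.15 (*Myocd* to *Srf*).

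Members called at P7d against P1d (5) numbered 2 with an equal sum and 3 by the median of ratios, quantile, protein-coding nuclear genes or the *Xist* term, and 1 member was called at P1d against E18.5d with an equal sum (2 as deposited). All genes called at P7d against P1d (6013) numbered 3929 with an equal sum and 3905 with the *Xist* term. In the 5 hearts, members called were 0, 0 and 1 in the 3 comparisons (P1d against E18.5d, P7d against E18.5d, P7d against P1d) and all genes 823, 194 and 179. At an absolute log2 change of at least 1 they were 0, 0 and 1, and 716, 650 and 555.

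Lists, in the same order of comparisons: in the 5 hearts, related factors called were 0, 0 and 0, co-factors 0, 0 and 0, GATA, NKX and T-box targets 2, 0 and 0, MEF2 targets 1, 2 and 3, and SRF and myocardin targets 2, 2 and 1. At a log2 change of at least 1 they were 0, 0 and 0, then 0, 0 and 0, then 1, 4 and 2, then 1, 3 and 3, then 2, 4 and 2. Related factors at P1d against E18.5d (5) were 3 at a mean of at least 5 FPKM, 2 with an equal sum, 8 with quantile and 3 with the *Xist* term, and at P7d against P1d (5) 2 with an equal sum and 3 with the *Xist* term. Co-factors at P1d (9) were 5 without a filter or with only the 2 stages and 4 with the *Xist* term, at P7d against E18.5d (6) 3 with an equal sum, and at P7d against P1d (9) 3 with an equal sum and 5 with protein-coding nuclear genes or the *Xist* term. SRF and myocardin targets at P7d against P1d (7) were 4 without a filter or with the *Xist* term.

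Leaving out each heart gave log2 changes at P1d against E18.5d of -0.12 to 0.015 (*Mef2c*), -0.19 to 0.023 (*Tbx20*) and -0.17 to 0.070 (*Srf*), at P7d against E18.5d of -0.022 to 0.037 (*Mef2a*) and -0.029 to 0.058 (*Mef2c*), and at P7d against P1d of -0.0063 to 0.13 (*Mef2c*), -0.21 to 0.030 (*Srf*) and -0.061 to 0.0090 (*Gata4*). Ratio differences were -0.051 to 0.067 (*Mef2a* to *Mef2c*, P7d against E18.5d) and, for *Myocd* to *Srf*, -0.090 to 0.064, -0.11 to 0.083 and -0.11 to 0.079. Related factors called at P1d were 4 to 9, co-factors 4 to 7 at P1d and 5 to 9 at P7d against P1d, and SRF and myocardin targets 7 to 11 at P7d against E18.5d and 4 to 7 against P1d.

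The replicate block left the members called at 2, 4 and 5 and changed no call of a member. Same-numbered hearts of different stages correlated at -0.055 to 0.112 in their deviations from the stage means, so the numbers were not taken as pairs.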
